A study of Homo sapiens with 15 samples.

Results

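The regions described here are dense clusters of constitutive distal open chromatin in HPAF-II cells, an epithelial line from a human pancreatic adenocarcinoma. Peaks of 15 libraries were merged into 222814 regions. Of these, 35389 had a peak in all 15 libraries and are called constitutive, and 25183 of the constitutive regions lay more than 1 kb from both ends of every protein-coding gene and are called distal. The genome was cut into 100 kb bins, and a bin holding 8 or more constitutive distal regions was called dense. The members are the 1068 constitutive distal regions in dense bins that lay within 100 kb of a protein-coding gene, which is 4.24% of the 25183 constitutive distal regions and 0.479% of all regions. They filled 127 bins, which formed 121 separate clusters, 6 of them made of 2 touching bins. Another 82 regions in dense bins lay farther than 100 kb from any protein-coding gene and were left out. The members were chosen by the calling of peaks in all 15 libraries and by the density of such regions, so both are given as description, with no test.

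ATAC-seq, in which a transposase cuts and tags DNA that is not wrapped tightly in nucleosomes, was run on 50000 cells per library. All 15 libraries are labelled as this line, with no genetic change named. The growth protocol also describes the medium of KATO III cells, a label that no library used here carries. Cells received 1 µM Lgk974 or its solvent DMSO, with 4 libraries of either treatment at 24 h. At 48 h the DMSO group had 4 libraries and the Lgk974 group 3. Lgk974 blocks porcupine, the acyltransferase that attaches the fatty acid WNT ligands need for their release. The labels do not say that replicates were separate cultures, so p-values measure only how far these libraries spread, and that spread may be technical. The 8 DMSO libraries received no inhibitor and are the background for every comparison. Peak lists ran from 53610 to 127886 peaks, and no read counts were used, so depth is unknown. The longest list (DMSO 24 h replicate 3) and the shortest pair (Lgk974 24 h replicate 3 and Lgk974 48 h replicate 3) stood apart from the rest, and results that rest on them are given with and without them.

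Distal open regions are where transcription factors bind away from promoters, and many of them act as enhancers. Stretches of the genome in which many such regions sit close together, often called clustered or super-enhancers, are known for lying near genes that define a cell's identity, and in carcinoma cells near genes of the cytoskeleton, adhesion and growth signalling. Several factors bind such elements in epithelial cancers. AP-1, a dimer of FOS and JUN proteins, binds TGANTCA. TCF and LEF factors, which carry beta-catenin to DNA when WNT signalling is on, bind ATCAAAG.

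The word distal was checked against annotation. Here it means far from the outer ends of protein-coding genes, and it does not exclude internal starts or starts of non-coding RNAs. Of the 1068 members, 86 (8.05%) overlapped a 300-base window around a start annotated in RefSeq, with 31 of them at a protein-coding and 58 at a non-coding start. The share was 7.12% in the other constitutive distal regions and 72.6% in constitutive regions at gene ends. When the ends of all genes, non-coding ones included, were used to define distal, 575 members in 69 bins remained. The cell type was checked by peaks within 1 kb of the ends of marker genes: 9 of 10 ductal epithelial markers were called in all 15 libraries. Of 5 immune markers, CD3E, SPI1 and CD14 were called in all 15 libraries and PTPRC in 2. Of 5 fibroblast markers, COL1A1 was called in all 15, COL1A2 in 11, PDGFRB in 10, and DCN and LUM in none. The 3 endothelial markers were called in at most 1 library, and the 5 endocrine and acinar markers in at most 2. The part of other cells in the results was not tested.

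The annotated start windows show the DNA of some members. They come from RefSeq on GRCh38.p14, the assembly also named hg38, run 5′ to 3′ on the strand of the gene from 250 bases before to 50 bases after the start, and have motif matches in capitals. The first pair lies at members that rose with Lgk974, near CAPN5 and PEX26. The LOC105369400 window covers chr11:77063674-77063973 on the minus strand, and its ETS match (GGAAGT, read here as its reverse complement) lies inside the member, whereas its AP-1 and TCF and LEF matches lie just outside the member's edge. The LOC105372853 window covers chr22:18056778-18057077 on the plus strand, and its AP-1 match lies inside the member. The other 4 come from clusters described below: the non-coding SMAD3-AS1 (chr15:67146890-67147189, minus) inside the gene with the most members, an internal start of ARHGEF10L (chr1:17519947-17520246, plus), the non-coding MALAT1 in the fullest bin (chr11:65497488-65497787, plus), and LINC00114 beside ETS2, with 2 AP-1 matches (chr21:38773428-38773727, minus). In SMAD3-AS1 the ETS and AP-1 matches share 1 base, and the 3 matches in MALAT1 are GGGCGGG, the KLF and SP motif.
LOC105369400 (member near CAPN5): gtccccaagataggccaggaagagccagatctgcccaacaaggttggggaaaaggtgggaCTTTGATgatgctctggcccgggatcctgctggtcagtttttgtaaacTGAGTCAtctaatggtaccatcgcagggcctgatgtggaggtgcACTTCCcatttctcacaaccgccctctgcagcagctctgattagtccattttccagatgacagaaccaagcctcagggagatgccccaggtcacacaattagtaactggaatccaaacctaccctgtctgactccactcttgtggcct
LOC105372853 (member near PEX26): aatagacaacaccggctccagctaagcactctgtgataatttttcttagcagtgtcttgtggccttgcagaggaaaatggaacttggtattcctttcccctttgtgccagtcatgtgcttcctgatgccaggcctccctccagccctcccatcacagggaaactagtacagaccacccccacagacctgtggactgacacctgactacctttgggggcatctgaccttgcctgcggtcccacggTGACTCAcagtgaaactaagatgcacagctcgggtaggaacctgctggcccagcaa
SMAD3-AS1 (member inside SMAD3): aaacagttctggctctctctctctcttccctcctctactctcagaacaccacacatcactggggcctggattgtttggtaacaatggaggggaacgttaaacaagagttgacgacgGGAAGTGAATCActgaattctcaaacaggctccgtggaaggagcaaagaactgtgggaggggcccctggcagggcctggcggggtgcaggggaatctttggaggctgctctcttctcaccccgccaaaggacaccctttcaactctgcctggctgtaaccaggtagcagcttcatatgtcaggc
ARHGEF10L internal start: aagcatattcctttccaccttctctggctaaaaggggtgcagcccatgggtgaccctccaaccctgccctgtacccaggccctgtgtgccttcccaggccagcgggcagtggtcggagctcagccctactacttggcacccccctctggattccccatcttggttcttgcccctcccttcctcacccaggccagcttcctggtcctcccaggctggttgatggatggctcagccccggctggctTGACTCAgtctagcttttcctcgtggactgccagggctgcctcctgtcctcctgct
MALAT1: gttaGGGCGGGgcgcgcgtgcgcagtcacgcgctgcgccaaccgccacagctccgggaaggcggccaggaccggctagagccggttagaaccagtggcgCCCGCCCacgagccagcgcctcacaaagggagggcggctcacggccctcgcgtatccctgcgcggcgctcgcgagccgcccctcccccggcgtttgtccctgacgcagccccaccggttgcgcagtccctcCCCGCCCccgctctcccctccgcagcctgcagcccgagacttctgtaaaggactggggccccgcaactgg
LINC00114 (member near ETS2): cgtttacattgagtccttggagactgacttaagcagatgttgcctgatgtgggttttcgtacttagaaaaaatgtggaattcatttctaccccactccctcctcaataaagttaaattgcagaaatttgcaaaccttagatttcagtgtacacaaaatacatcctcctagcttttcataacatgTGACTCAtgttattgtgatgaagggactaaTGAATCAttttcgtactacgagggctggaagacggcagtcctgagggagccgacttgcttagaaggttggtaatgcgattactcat

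Over both strands, TGANTCA was found in 20 of the 103 windows that overlap members (19.4%), beside 7.69% of all 34789 windows and 4.34% of the windows that overlap constitutive regions at gene ends. GGGCGGG was in 41.7% of member windows, 33.1% of all and 55.5% of those at gene ends. GGAAGT was in 29.1% of member windows and 22.8% of all, and AGATAA, the GATA motif, in 10.7% and 10.4%. ATCAAAG, the TCF and LEF motif, was in 3 member windows (2.91%), beside 2.64% of all windows. CATTCC, the TEAD motif, was in 12.6% and 14.1%, and TGTTTAC, the forkhead motif, in 1.94% and 3.42%. Neither AACCGGTT of GRHL nor the longer HNF1 motif was in a member window. Mean GC content was 61.4% in member windows, 57.5% in all windows and 65.4% at gene ends. Among these windows the AP-1 letters were the ones whose share in members was farthest above both other shares. Motifs were not counted in the 2180 windows that overlap the other constitutive distal regions. Whether the AP-1 share is particular to dense clusters was therefore not tested. Windows of one gene can overlap, and they cover starts, not the middle of the members. Annotated miRNAs lay in 3 members. The mature miR-6076 lies in a member near ARF6 on chromosome 14 and miR-4505 in a member inside MIDEAS. They are shown with the seed, bases 2 to 8, in capitals, and the seeds differ. The third hairpin, MIR639, lay in a member near TECR.
hsa-miR-6076: aGCAUGACagaggagaggugg
hsa-miR-4505: aGGCUGGGcugggacgga

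The clusters were unevenly spread over the chromosomes. Members made up 10.4% of the constitutive distal regions of chromosome 14, and 8.47% on chromosome 22, 8.18% on 19, 8.17% on 20 and 8.14% on 21. Chromosomes 4, 13 and X held no member. A dense bin held a median of 8 members and at most 13, and the 127 bins overlapped a median of 2 protein-coding genes, with none in 17 bins. The gap between neighbouring constitutive distal regions had a median of 6334 bp in dense bins and 14498 bp in other bins. Members had a median width of 818 bp, close to the 806 bp of other constitutive distal regions, so dense bins held more regions and not wider ones. Kept regions covered a median of 7.40% of a dense bin. Inside protein-coding genes lay 491 members (46.0%), beside 50.3% of the other distal regions. Just inside the limit, 83 bins held exactly 8 kept regions, among them the bins at ERRFI1 and at HSPG2 and CELA3B. Just outside, 120 bins held 7, among them those at PRKCZ and FAAP20, at AHDC1 and at TINAGL1.

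The fullest bin was chr11:65400001-65500000, with 13 members beside FRMD8. The start of the long non-coding RNA MALAT1 lay in the last of them, near the end of the bin. In 3 bins there were 12 members. The first lay at EPHA2, a receptor tyrosine kinase for ephrins, and ARHGEF19, an exchange factor for small GTPases (chr1:16100001-16200000). Another lay inside ARHGEF10L, also an exchange factor of this kind (chr1:17500001-17600000). The last lay between TEX44 and PTMA (chr2:231600001-231700000). Bins with 11 members lay at ADAP1 on chromosome 7, at CSNK1D, the gene of casein kinase 1 delta, and SLC16A3, a lactate transporter, on chromosome 17, and at CARD10 and CDC42EP1, an effector of the CDC42 GTPase, on chromosome 22. Bins with 10 were those beside VCPKMT, inside XXYLT1, at LAT2, RFC2 and CLIP2 on chromosome 7, and beside IER5, an immediate early gene, ODC1, the first enzyme of polyamine synthesis, TMSB10, which binds actin monomers, CSNK1A1, whose kinase marks beta-catenin for destruction, and GPX3 and TNIP1, an inhibitor of NF-kappa-B signalling. By nearest gene, SMAD3, the transcription factor that TGF-beta receptors phosphorylate, had the most members (16, of which 11 inside the gene, over 2 touching bins). ARHGEF10L had 12, DAGLA, a lipase that makes an endocannabinoid, had 11, and IER5, XXYLT1, ADAP1, VCPKMT and PACSIN2 had 10 each. IRF2BP2, PLB1, TRAK1 and JADE2 had 9 each.

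A member lay within 100 kb of 573 of 19970 protein-coding genes (2.87%). Among 27 epithelial junction and keratin genes it was 7: KRT7, KRT8, KRT18, KRT19 and KRT80, the intermediate filament genes of simple epithelia, CDH1, the E-cadherin of adherens junctions, and CD9. KRT8 had 10 members within 100 kb, and the neighbouring genes KRT80 and KRT7 had 16 and 15, which overlap. Among 20 mucins and gastric or intestinal genes it was 4 (MUC4, MUC20, CEACAM5 and CEACAM6), and among 17 YAP and TGF-beta targets 3, SMAD3 and SMAD7 among them. Among 27 pancreatic and foregut endoderm factors it was 3, TFAP2A, ELF3 and GATA4, and among 17 ETS, RUNX and KLF factors 2, ETS2 and ERG. Among 24 interferon and nucleic acid sensing genes it was 2, IRF1 and SOCS3, and among 20 mesenchymal, endothelial and endocrine genes 2, VWF and CELA3A. Of 26 WNT pathway genes only TCF7L1, a TCF factor, had one. None of 12 AP-1 factor genes, 16 EGF receptor and RAS genes, 12 cell cycle and survival genes and 12 immune cell genes had one. Neighbouring genes of a list share members, and large genes reach more regions, so these counts are a description only.

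The strength of a region in a library was taken as the largest deposited fold of its peaks, a ratio over background given by the authors' peak caller, and expressed as a percentile among the same 35389 constitutive regions of that library. Members were low on this scale. Their median percentile was 25.7 to 33.4 in 14 libraries and 51.0 in Lgk974 48 h replicate 3, whereas the other constitutive distal regions had medians of 46.6 to 54.9, and the members were below them in 14 of 15 libraries. Across all distal regions the fold was lower in fuller bins, though not at every step: the median was 59.7 for regions alone in their bin, 47.2 with 4 per bin, 29.3 with 8, 33.4 with 10 and 18.7 with 11 to 13. The deposited −log10 p did not follow it, with medians between 42.9 and 49.7 at every density. By −log10 p, members had medians of 40.7 to 49.1 in the same 14 libraries and 61.2 in Lgk974 48 h replicate 3, below those of the other distal regions in 7 of 15. What sets the 2 measures apart was not tested.

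**Figure D1:**
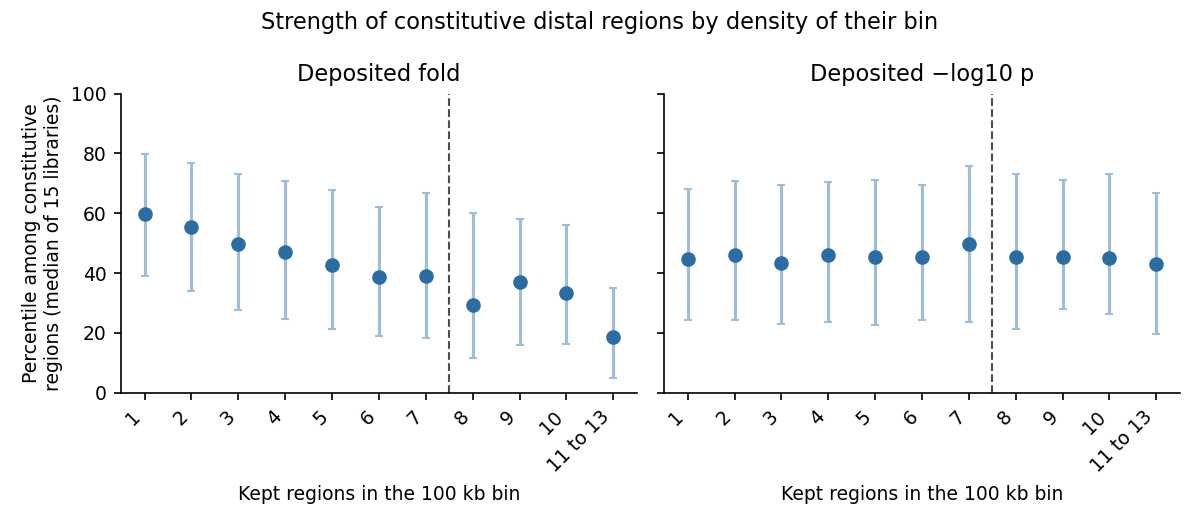
Percentile of the deposited fold (left) and the deposited −log10 p (right) against the number of constitutive distal regions in the 100 kb bin. Points are medians over regions of each region's median over 15 libraries, bars span the 25th to 75th percentile, and the dashed line marks the limit of 8; on the left the median falls from 59.7 to 18.7, on the right it stays between 42.9 and 49.7.

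Members varied widely in strength. The middle part of them, from the 25th to the 75th percentile of members, had median fold percentiles between 12.4 and 56.3. Of the 1068, 231 (21.6%) were under the 10th percentile of constitutive regions, beside 6.42% of the other distal regions, and 38 (3.56%) were above the 90th, beside 9.28%. Within a bin the strongest and weakest member lay a median of 69.9 percentile points apart. The strongest members were a pair near CXCL17, a mucosal chemokine, with median percentiles of 98.7 and 98.6, followed by members inside CDCP1, a transmembrane substrate of SRC kinases (97.5), near HIF3A (97.3), inside PLB1 (97.2), near TFAP2A (96.8) near CEACAM1, an adhesion molecule (96.5), near ABTB2 (96.1) and near ERRFI1, an inhibitor of the EGF receptor (95.8). Inside SMAD3 a single member, chr15:67174677-67175428, reached 95.6. The weakest was inside PLEC, the gene of the cytolinker plectin, at 0.00141, the bottom of the scale, and 3 of the next 4 were in the FRMD8 to MALAT1 bin, at 0.0155, 0.0636 and 0.0862. That bin, the fullest, had a median of 5.70 and no member above 45.2. The 8 members at IRF1 and SLC22A5 were also all weak, between 0.578 and 15.95.

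Between groups, the median fold percentile of members overlapped. It was 29.0 ± 3.55 (SD, n = 4) with DMSO and 30.8 ± 2.09 (n = 4) with Lgk974 at 24 h, and 30.1 ± 3.32 (n = 4) and 34.6 ± 14.2 (n = 3) at 48 h. The wide spread of the last group came from replicate 3, whose median was 51.0, beside 27.1 and 25.7 in the other libraries of that group. Its list was the second shortest, and its −log10 p median for members was the highest as well. No p is given, since members are not replicates.

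**Figure D2:**
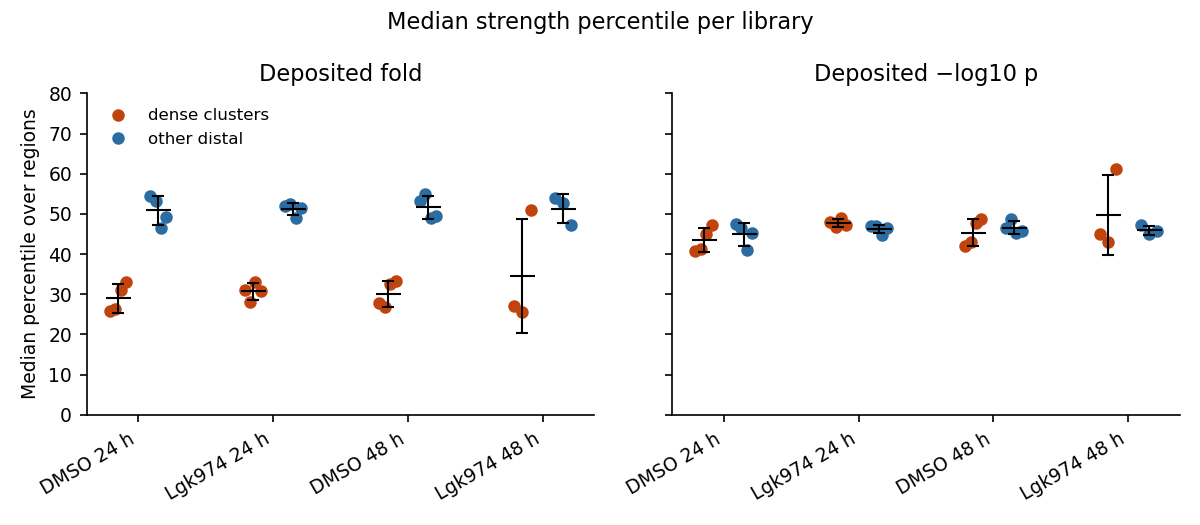
Median fold percentile (left) and −log10 p percentile (right) per library, for the 1068 members and the 24115 other constitutive distal regions. Each point is a library, bars are mean ± SD, and n is 4, 4, 4 and 3; the member medians lie below the others on the left in all libraries but Lgk974 48 h replicate 3.

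Treatment was compared through the ranks, converted to normal scores and fitted with limma over all 35389 constitutive regions, with Benjamini-Hochberg adjustment over all of them. A difference of 1 is 1 SD of the scores within a library. It says that a region moved relative to the other constitutive regions, not that its DNA became more or less open in absolute terms. Over both times, 26 members had a higher and 5 a lower rank with Lgk974 at adjusted p under 0.05, or 2.90% of members. Of all constitutive regions, 1.42% passed, 0.896% higher and 0.526% lower, and the difference between these shares was not tested. In the other constitutive distal regions 1.82% passed, 267 higher and 172 lower. The groups did not overlap, with all 7 Lgk974 libraries above all 8 DMSO libraries, for 8 members, and with all below for 3. The same held for 0.441% and 0.283% of all constitutive regions, beside 0.749% and 0.281% of members.

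The median difference over all members was 0.07, and 648 of 1068 (60.7%) were positive, beside 50.1% of all constitutive regions. The sign of this median over both times rested on 1 library: without Lgk974 48 h replicate 3 it was −0.05. It was −0.06 without the 3 libraries that stood apart. At 24 h, where Lgk974 48 h replicate 3 has no part, the median was 0.064. There 631 of 1068 (59.1%) were positive, beside 50.2% of all constitutive regions. A similar lean was seen without inhibitor. For DMSO at 48 h against DMSO at 24 h the members' median was 0.047. In that comparison 619 of 1068 (58.0%) were positive, beside 50.1% of all constitutive regions. Whether the lean with Lgk974 differs from the lean between DMSO groups was not tested. The 24 h median was 0.036 without the 3 libraries, and ran from 0.016 to 0.107 without each library in turn. The counts moved with the libraries as well. Without Lgk974 48 h replicate 3 the members past the threshold were 19 higher and 13 lower, and without the 3 libraries 41 and 24. Of all 35389 constitutive regions, 530 and 1233 passed in these fits, beside 503 in the main fit. The number higher fell to 16 without DMSO 24 h replicate 2, to 13 without DMSO 24 h replicate 4, to 11, 10 and 12 without Lgk974 24 h replicates 1, 2 and 4, and to 12, 14 and 13 without DMSO 48 h replicates 1, 3 and 4. In each of the last 8 cases but Lgk974 24 h replicate 4 and DMSO 48 h replicate 1, where 5 and 4 remained, the number lower was 2 or 3. Ranks by −log10 p gave 85 higher and 23 lower, and ranks by summed folds 10 and 2. By these measures 2400 and 252 of all 35389 constitutive regions passed, so the number called moved in all regions and not only in members. No called member changed direction in any alternative, though the alternatives reuse most of the same libraries, so a change was unlikely from the start. Of the 31, 30 were called without the 3 libraries.

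**Figure D3:**
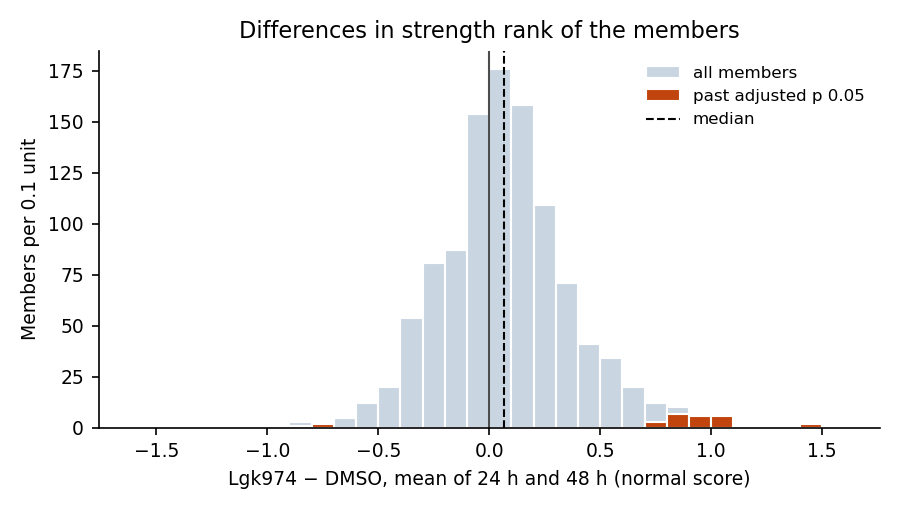
Number of members by their difference in strength rank between Lgk974 and DMSO (normal score units, mean of 24 h and 48 h). Light bars are all 1068 members, dark bars those past adjusted p 0.05 (26 higher, 5 lower), and the dashed line is the median of 0.07.

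The largest rise was near ZFP90, a zinc finger gene, at chr16:68492335-68493098, 40381 bp from the gene. Its fold percentiles were 3.70, 1.29, 2.86 and 16.5 in the DMSO libraries at 24 h, 36.2, 31.4, 49.7 and 60.6 with Lgk974 at 24 h, 3.15, 2.10, 8.89 and 7.10 with DMSO at 48 h and 34.1, 30.7 and 61.9 with Lgk974 at 48 h. All Lgk974 libraries were above all DMSO libraries, and the difference was 1.53 ± 0.21 (SE; limma adjusted p = 0.000777). The member beside CAPN5, a calpain protease gene, at chr11:77063041-77063833, overlaps the LOC105369400 start shown above. It had fold percentiles of 2.80, 2.39, 1.21 and 3.33 in the DMSO libraries at 24 h, 36.5, 24.6, 42.7 and 35.9 with Lgk974 at 24 h, 3.72, 6.75, 5.39 and 3.94 with DMSO at 48 h and 28.7, 13.3 and 68.9 with Lgk974 at 48 h. The groups did not overlap here either, the DMSO values stayed under the 7th percentile, and the difference was 1.43 ± 0.20 (SE; limma adjusted p = 0.000855). These were the members that passed at 24 h alone.

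Inside PRKCH, the gene of protein kinase C eta, an isoform of epithelial cells, the member at chr14:61517589-61518427 had fold percentiles of 27.6, 28.4, 4.36 and 3.60 in the DMSO libraries at 24 h, 57.9, 73.5, 28.1 and 63.6 with Lgk974 at 24 h, 22.4, 31.96, 1.01 and 15.02 with DMSO at 48 h and 83.5, 74.7 and 46.7 with Lgk974 at 48 h. The DMSO libraries varied, 1 Lgk974 library (28.1) fell inside their range, and the difference was 1.49 ± 0.29 (SE; limma adjusted p = 0.0109). A second PRKCH member 34396 bp away, chr14:61552824-61553577, was also higher, with 15.2 ± 8.69 (SD, n = 8) with DMSO and 43.1 ± 16.1 (SD, n = 7) with Lgk974 and a difference of 0.93 ± 0.22 (SE; limma adjusted p = 0.0343). Inside TRAK1, whose protein links mitochondria to motor proteins, the member at chr3:42134967-42135635 had 12.1, 6.21, 45.1 and 11.5 in the DMSO libraries at 24 h, 20.96, 43.6, 40.9 and 55.6 with Lgk974 at 24 h, 7.26, 5.18, 12.4 and 7.96 with DMSO at 48 h and 36.999, 52.9 and 75.2 with Lgk974 at 48 h. DMSO 24 h replicate 3 was far above the other DMSO libraries, so that the groups overlapped, and the difference was 1.15 ± 0.22 (SE; limma adjusted p = 0.0109). Near MRPL33, a gene of the mitochondrial ribosome, the member at chr2:27737581-27738103 had 14.6, 7.84, 0.722 and 6.12 in the DMSO libraries at 24 h, 37.4, 30.2, 27.1 and 34.7 with Lgk974 at 24 h, 6.76, 12.3, 16.04 and 4.53 with DMSO at 48 h and 32.2, 24.3 and 58.5 with Lgk974 at 48 h. The groups did not overlap, and the difference was 1.09 ± 0.21 (SE; limma adjusted p = 0.0107).

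Inside B3GALT5, which encodes a galactosyltransferase of the type 1 sugar chains on pancreatic glycoproteins, the member at chr21:39637235-39638150 had fold percentiles of 0.838, 0.852, 6.09 and 2.60 in the DMSO libraries at 24 h, 5.98, 11.1, 6.22 and 10.1 with Lgk974 at 24 h, 0.276, 0.872, 1.03 and 0.126 with DMSO at 48 h and 8.10, 6.59 and 25.6 with Lgk974 at 48 h. Its difference was 1.05 ± 0.19 (SE; limma adjusted p = 0.00575) over both times, and it was the member that passed at 48 h alone. Inside SMAD3, chr15:67161793-67162572 had 16.003 ± 8.92 (SD, n = 8) with DMSO and 48.8 ± 17.4 (SD, n = 7) with Lgk974, a difference of 1.04 ± 0.23 (SE; limma adjusted p = 0.0253). Inside EPHA2, chr1:16138585-16139976 had 2.42 ± 3.76 (SD, n = 8) with DMSO and 12.02 ± 14.8 (SD, n = 7) with Lgk974, a difference of 1.01 ± 0.24 (SE; limma adjusted p = 0.0377), with 1 library, Lgk974 48 h replicate 3, at 45.3. Inside AMOTL1, an angiomotin family gene whose protein holds YAP at junctions, the member had 7.01 ± 5.98 (SD, n = 8) with DMSO and 28.2 ± 16.6 (SD, n = 7) with Lgk974. Inside PLB1, a phospholipase gene, the member at chr2:28639780-28640411 had 44.3 ± 10.5 (SD, n = 8) with DMSO and 75.8 ± 8.74 (SD, n = 7) with Lgk974 without overlap, a difference of 0.87 ± 0.18 (SE; limma adjusted p = 0.0197). Near IER5 the values were 20.4 ± 6.74 (SD, n = 8) with DMSO and 47.8 ± 20.1 (SD, n = 7) with Lgk974. The SMAD3 call was lost without DMSO 24 h replicate 4, Lgk974 24 h replicate 2, DMSO 48 h replicates 1 or 4, or Lgk974 48 h replicates 1 or 2, and of all 31 calls 10 held without each library in turn.

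A pair of members near NTN4, a netrin of basement membranes, rose together. They lay 6825 bp apart, with 26.1 ± 8.18 (SD, n = 8) with DMSO and 54.96 ± 10.1 (SD, n = 7) with Lgk974 without overlap at the first and 30.1 ± 17.1 (SD, n = 8) with DMSO and 64.4 ± 21.4 (SD, n = 7) with Lgk974 with overlap at the second. Near PEX26, a peroxisome import gene, the member that holds the LOC105372853 start had 12.6 ± 8.05 (SD, n = 8) with DMSO and 38.1 ± 21.5 (SD, n = 7) with Lgk974, a difference of 0.96 ± 0.23 (SE; limma adjusted p = 0.0364). The other called members that were higher lay at ATP2B4, CD93, FAM43A, PTK2B, PTPN7, RFC2, SLMAP, SMPD3, UQCC1, ZMIZ1 and ZSWIM4, with differences between 0.77 and 0.99. Of the 26, 14 lay inside a protein-coding gene. Their median fold percentile over all libraries, Lgk974 included, was 16.3, beside 20.3 for the called members that were lower. Members as a whole were also low, with a median of 30.7 over the library medians. DMSO gave 8 of the 15 libraries, so where the groups did not overlap this value is that of a DMSO library. For the called members that were lower, DMSO means ran from 8.77 to 72.4.

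**Figure D4:**
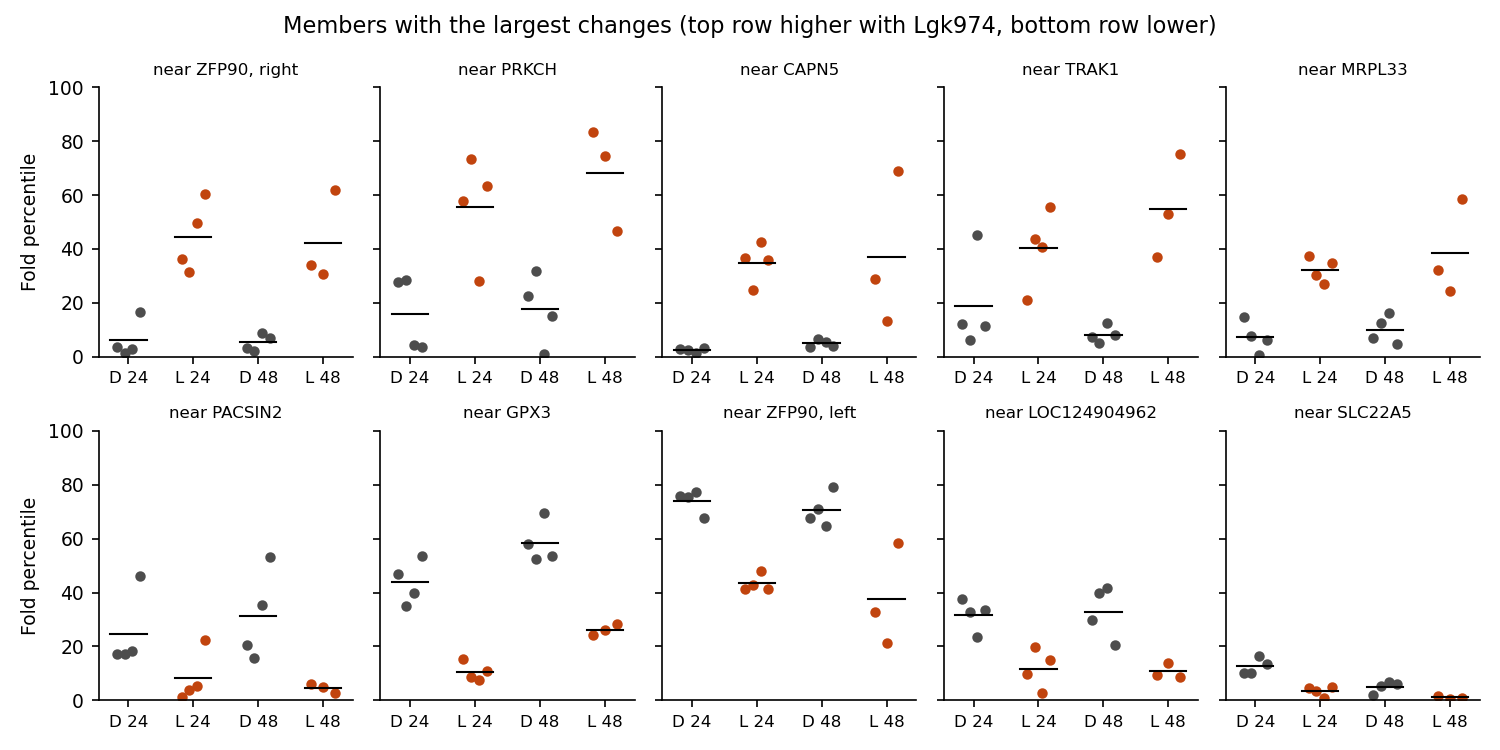
Fold percentile in every library of the 5 members with the largest rise (top) and the 5 with the largest fall (bottom), named by the nearest protein-coding gene. Columns are DMSO (D) and Lgk974 (L) at 24 h and 48 h, points are libraries and lines are group means; all Lgk974 points lie above all DMSO points for ZFP90 (right), CAPN5 and MRPL33, and below them for GPX3, ZFP90 (left) and LOC124904962.

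The 5 members that were lower lay in 5 bins. Near GPX3, a secreted glutathione peroxidase gene, the member at chr5:151005427-151006570 had fold percentiles of 46.9, 35.1, 39.8 and 53.7 in the DMSO libraries at 24 h, 15.4, 8.59, 7.31 and 10.7 with Lgk974 at 24 h, 58.02, 52.3, 69.6 and 53.6 with DMSO at 48 h and 24.2, 25.9 and 28.2 with Lgk974 at 48 h. All Lgk974 libraries were below all DMSO libraries, and the difference was -0.99 ± 0.16 (SE; limma adjusted p = 0.00303). Near ZFP90, the member at chr16:68490828-68491532 had 75.8, 75.4, 77.4 and 67.8 in the DMSO libraries at 24 h, 41.4, 42.9, 48.2 and 41.1 with Lgk974 at 24 h, 67.5, 70.9, 64.9 and 79.4 with DMSO at 48 h and 32.8, 21.3 and 58.4 with Lgk974 at 48 h. Again the groups did not overlap, and the difference was -0.86 ± 0.17 (SE; limma adjusted p = 0.0145). Inside PACSIN2, whose protein bends membranes at caveolae and endosomes, the member at chr22:42990967-42991604 had 17.2, 17.1, 18.2 and 46.000 in the DMSO libraries at 24 h, 1.15, 3.69, 5.14 and 22.5 with Lgk974 at 24 h, 20.7, 15.8, 35.4 and 53.2 with DMSO at 48 h and 5.90, 5.02 and 2.50 with Lgk974 at 48 h. The groups overlapped through Lgk974 24 h replicate 4, and the difference was -1.04 ± 0.23 (SE; limma adjusted p = 0.0232). Near LOC124904962, chr20:22795577-22796372 had 32.3 ± 7.54 (SD, n = 8) with DMSO and 11.3 ± 5.47 (SD, n = 7) with Lgk974 without overlap, a difference of -0.80 ± 0.18 (SE; limma adjusted p = 0.0301). Near SLC22A5, the carnitine transporter gene, chr5:132406212-132406869 had 8.77 ± 4.69 (SD, n = 8) with DMSO and 2.38 ± 1.82 (SD, n = 7) with Lgk974, a difference of -0.70 ± 0.16 (SE; limma adjusted p = 0.0324). The calls at GPX3 and ZFP90 held without each library in turn. With −log10 p as the strength, the call at this ZFP90 member was lost. The PACSIN2 call was lost without DMSO 24 h replicate 4, Lgk974 24 h replicates 1 or 2, or DMSO 48 h replicates 3 or 4. The LOC124904962 call was lost without DMSO 24 h replicates 1, 2 or 4, Lgk974 24 h replicate 1, DMSO 48 h replicates 1, 2 or 3, or Lgk974 48 h replicate 1. The SLC22A5 call was lost without DMSO 24 h replicates 2 or 4, Lgk974 24 h replicates 1, 2 or 3, DMSO 48 h replicates 2, 3 or 4, or Lgk974 48 h replicate 2.

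At single times few members passed. At 24 h 2 were higher and none lower, beside 0.0254% and 0.017% of all constitutive regions (0.0424% either way), and the lower one nearest to the threshold was GPX3, with a difference of −1.11 ± 0.22 (SE; limma adjusted p = 0.0652). A member inside ATP2B4, other than the one called over both times, and one inside CDCP1 followed, at −0.85 ± 0.24 and −1.03 ± 0.29 (adjusted p = 0.306 and 0.317). At 48 h 1 was higher and none lower, beside 0.0848% and 0.0509% (0.136% either way). The nearest to the threshold among those lower at 48 h lay inside MYRF, at −0.99 ± 0.24 (SE; limma adjusted p = 0.120), followed by GPX3 and PACSIN2 (adjusted p = 0.179 and 0.199). At an unadjusted p under 0.05, 69 members were higher and 37 lower at 24 h, beside 3.82% and 3.43% of all constitutive regions. At 48 h these numbers were 87 and 24, beside 4.0% and 3.63%. Every one of the 31 members called over both times had the same sign at 24 h and at 48 h. They were chosen by the mean of both times, which favours the same sign, so this is a description only. The test of a different effect at 48 h called no member and 0.0% of all regions in limma, with 11 members higher and 7 lower at an unadjusted p of that size, beside 1.14% and 1.04%. DMSO at 48 h against DMSO at 24 h also called none, with 0.0% of all regions, and 31 and 17 members at such an unadjusted p, beside 1.77% and 1.74%. With array quality weights, which count less variable libraries more, 8 members were called for the first of these and 1 for the second. The numbers over all regions with weights are not given here for these tests. Single counts at one time also moved with the libraries, from 0 to 3 at 24 h and from 0 to 5 at 48 h when each was left out in turn.

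Within dense bins the differences had both signs, most of them in members that did not pass. Of 941 pairs of neighbouring members in one bin, 503 (53.5%) had differences of the same sign and 438 of opposite sign. Of the 126 bins with 2 or more members, 123 held members of both signs, 3 only positive ones and none only negative ones, and differences within a bin spanned a median of 0.84. A bin held a median of 8 members, and 60.7% of members were positive. Most bins would thus hold both signs even if signs were independent. These counts therefore cannot show whether members of a bin moved together. Signs in other bins were not counted. Members that passed in opposite directions shared a bin in 1 case, described below. The mean rank of the kept regions in a bin was tested with limma over all 11496 bins: 0 of the 127 dense bins passed adjusted p 0.05 over both times, beside 0.4% of all bins higher and 0.513% lower, and by unadjusted p 7 were higher and 0 lower, beside 5.97% and 6.72% of all bins. At 24 h 0 dense bins passed, beside 0.0087% of all bins in each direction, and by unadjusted p 3 were higher and 0 lower, beside 3.57% and 3.88%. At 48 h 0 passed, beside 0.0435% in each direction, and by unadjusted p 4 were higher and 0 lower, beside 3.64% and 4.23%. The PRKCH bin had the smallest p, with a mean difference of 0.41 ± 0.12 (SE; limma adjusted p = 0.146) and 6 of 8 members positive. The bin near SNX5 had 0.39 ± 0.13 (adjusted p = 0.188), with 7 of 8 positive, and the SMPD3 bin 0.35 ± 0.13 (adjusted p = 0.257). The bins farthest down over both times, none past the threshold, lay at SLC12A7, EHD4 and CD55 (adjusted p = 0.594 to 0.706). At 24 h the bins nearest to the threshold lay at ABTB2, SMPD3 and SNX5 for higher (adjusted p = 0.632 to 0.637) and at IRF1, SLC12A7 and XXYLT1 for lower (0.809 to 0.865). At 48 h they lay at PRKCH, CD93 and PITPNM2 for higher (0.502 to 0.576) and at EHD4, HSPG2 and MUC4 for lower (0.873 to 0.893). By −log10 p ranks, 10 dense bins passed over both times, and the number over all bins by that measure is not given here.

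Members that passed in opposite directions lay in the bin chr16:68400001-68500000, at SMPD3, which encodes a sphingomyelinase that makes ceramide. Its 2 members near ZFP90 lie 802 bp apart. The left one passed by fold but not by −log10 p, so the opposite calls rest on the fold measure. The left one, at the 72.4 ± 5.33 percentile with DMSO, was at 40.9 ± 11.6 with Lgk974, and the right one went from 5.69 ± 5.06 to 43.5 ± 13.7 (SD, n = 8 and 7), so that with Lgk974 both had similar ranks. In the same bin, a member inside SMPD3, chr16:68426044-68426759, was higher, with 72.6 ± 16.03 (SD, n = 8) with DMSO and 93.9 ± 5.15 (SD, n = 7) with Lgk974 and a difference of 0.99 ± 0.24 (SE; limma adjusted p = 0.0417). The other 5 members of the bin had differences between −0.22 and 0.78 and did not pass. In the PRKCH bin, 2 of 8 passed, both upward, and the strongest, with 83.4 ± 3.88 and 89.9 ± 5.46, did not. Over the 2 SMAD3 bins, 1 of 16 members passed, 9 were positive, and the others ran from −0.28 to 0.51. In the FRMD8 to MALAT1 bin none of 13 passed, and 4 were positive.

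**Figure D5:**
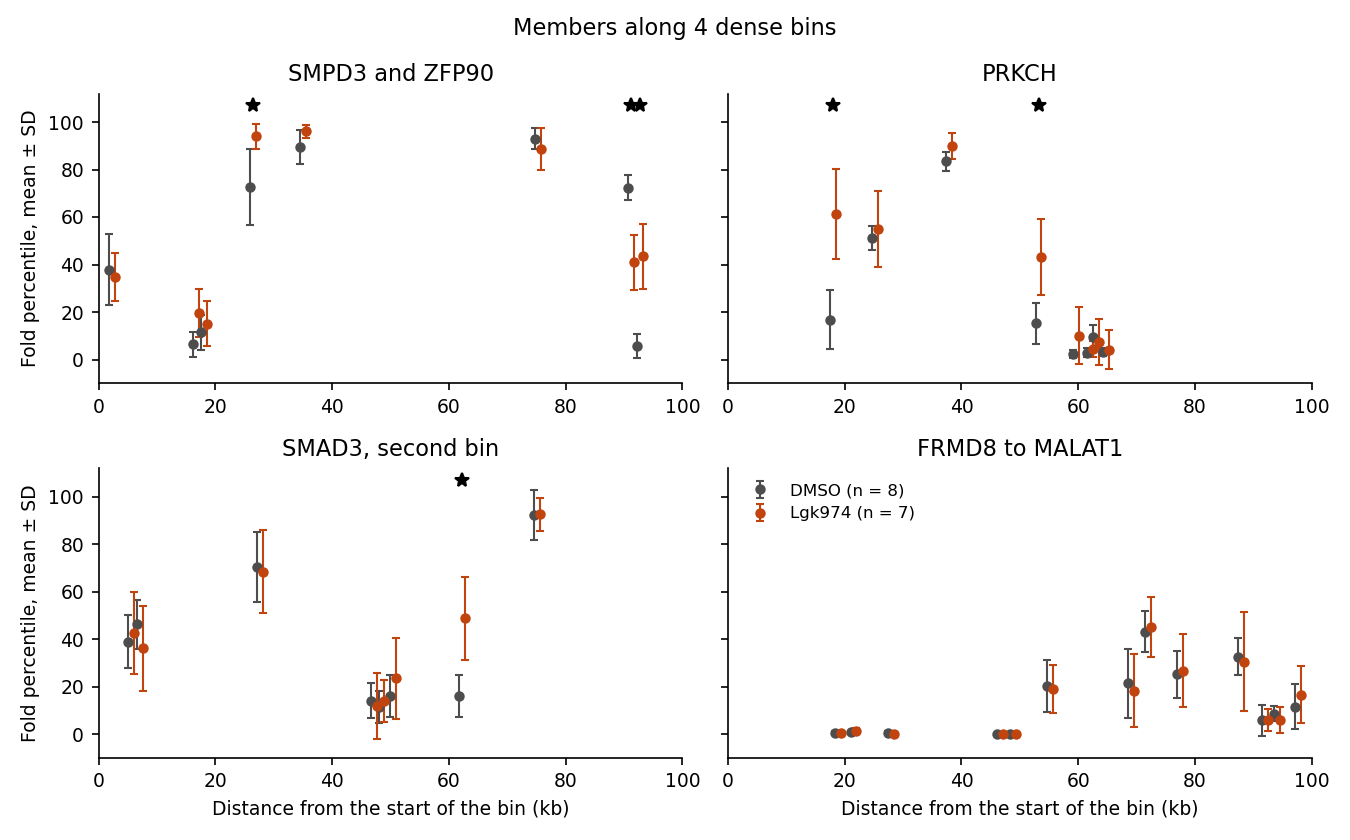
Fold percentile of each member against its distance from the start of the 100 kb bin, for 4 bins. Points are means and bars SDs over 8 DMSO and 7 Lgk974 libraries at both times, shifted by 0.5 kb to either side, and stars mark members past adjusted p 0.05: 3 in the SMPD3 and ZFP90 bin, 2 in the PRKCH bin, 1 in the SMAD3 bin and none in the FRMD8 to MALAT1 bin.

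Few members lay near genes of the lists, so the numbers called there are too small to be read against the 2.90% of members and 1.42% of all constitutive regions called. None of the 44 near epithelial junction and keratin genes, the 25 near endoderm factors, the 16 near mucins and gastric or intestinal genes, the 10 near mesenchymal, endothelial and endocrine genes, the 8 near ETS factors and the 1 near TCF7L1 passed. Of 33 near YAP and TGF-beta targets, the SMAD3 member was higher, and of 17 near interferon genes, the SLC22A5 member, within 100 kb of IRF1, was lower. The 6 members within 100 kb of GATA4, an endoderm factor, lay in the bin at FDFT1 and CTSB, and GATA4 was the nearest gene of none. All 6 had positive differences, from 0.14 to 0.46, without passing. Of all members 60.7% were positive, so this is a description only. Of the 8 members within 100 kb of MUC4, a membrane mucin gene, 2 were positive, with values from −0.81 to 0.46. MUC4 was the nearest gene of 1 of these 8, and TNK2 that of 6.

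Dense bins also held 602 regions called in 3 to 12 libraries, whose calling the choice of members did not use. An exact permutation test of calling within time, with 2450 assignments and two-sided, put 47 of them (7.81%) at a higher calling rate with Lgk974 at an unadjusted p under 0.05, beside 2.96% of all 60356 such regions, and 19 (3.16%) at a lower one, beside 3.08%. None passed after adjustment over all 60356, where the smallest adjusted p was 0.418, and none of the 60356 did. The clearest was inside PLB1, at chr2:28624993-28625586, which had a peak in 7 of 7 Lgk974 libraries and in 0 of 8 with DMSO (exact p = 0.000408, the smallest the design allows). In the same bin the PLB1 member described above rose, but only 3 of the 9 members of that bin had positive differences, with a median of −0.023. Regions near SMPD3, inside B3GALT5 and inside RIPK4, a kinase gene of epithelial differentiation, were called in 0 of 8 and 6 of 7, and one near IER5 in 1 of 8 and 6 of 7. In the other direction, a region inside MUC4 had a peak in 8 of 8 libraries with DMSO and 1 of 7 with Lgk974. Regions inside ST14, which encodes the membrane protease matriptase, inside SMAD7, an inhibitor of TGF-beta signalling, inside PACSIN2 and near CD7 were called in 7 of 8 and 0 of 7. The number higher moved with the libraries in the test. It was 65 of 421 without the 3 libraries that stood apart. It was between 14 and 27 in the 13 cases in which 1 library other than Lgk974 24 h replicate 3 (49) or Lgk974 48 h replicate 3 (45) was left out, and the number lower was then 8 to 19. A test with fewer libraries has fewer assignments, so the smallest p it allows is larger. Numbers over all such regions in these settings are not given here, so these counts are not read as results about dense bins.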

How the data were processed

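The deposited data were 1 peak list per library in hg38 coordinates. Per the submitters' processing notes, the tools named were MACS2, Bowtie2, Trimmomatic, SAMtools, Picard, bedtools, DESeq2, DiffBind, ChIPseeker and HOMER. Their settings, and whether reads were shifted for the transposase, were not given in the sources used here. Each deposited peak carries a score, a fold (ratio over background), a −log10 p-value, a −log10 q-value and a summit offset, all set by the authors' peak caller. They were used only to rank regions within a library.

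Peaks overlapping by at least 1 bp were merged over 15 libraries, on chromosomes 1 to 22 and X (1138 other peaks left out; 1 damaged line read as chromosome 1). The largest fold per region was ranked among the 35389 constitutive regions, turned into normal scores and fitted with limma 3.58.1 in R 4.3.3 (4 groups, trended prior, Benjamini-Hochberg over all regions, 0.05), after testing on simulated data. Other steps ran in Python 3.11.15 with pandas 2.3.3, numpy 2.4.6 and scipy 1.17.1, figures in matplotlib 3.10.9. Calling of variable regions was tested by exact permutation within time, and medians and counts of members were not tested. Gene ends and sequences came from RefSeq on GRCh38.p14. Motifs were searched only in start windows, and sequence around summits was not analysed here.

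Named were the 15 fullest bins, the 12 genes with most members, and per contrast the members and bins with the largest changes (5 each way over both times); other genes in the text were chosen after their values were seen. The members and lists were chosen with earlier results of these data known. Deviations of same-numbered libraries from their group means correlated at 0.335, 0.376 and 0.468 at 48 h, and at 0.219, 0.232, 0.153 and 0.0747 at 24 h. The main fits did not use the numbers as pairs at either time, so the 48 h p-values leave out this likeness. Fits with the replicate number as a block are given only as alternatives. Alternatives covered strength measure, weights, block, libraries and the rule.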

Additional observations from a re-analysis of the deposited data

Results flagged for a closer look

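Among the 31 members called over both times and the members' medians, 99 groups of 4 libraries were checked for a library far from the other 3, and 14 stood out. Chance alone sets 1 in 20 such groups apart. DMSO 24 h replicate 3, the longest list, gave 7 of them, in both directions. Its fold percentile was 3.23 at PTPN7, beside 13.4 to 15.02 in the other 3 libraries of the group, and 20.1 at UQCC1, beside 52.8 to 55.8. It was above the others at TRAK1 (45.1, beside 6.21 to 12.1), FAM43A (11.1, beside 0.971 to 2.06), ZSWIM4 (7.09, beside 1.05 to 1.87), CD93 (5.92, beside 0.786 to 1.18) and PEX26 (24.9, beside 5.10 to 6.09). DMSO 24 h replicate 4 was above the others at the right ZFP90 member (16.5, beside 1.29 to 3.70) and at PACSIN2 (46.0, beside 17.1 to 18.2). Lgk974 24 h replicate 3, the shortest list, was below the others at SMPD3 (83.6, beside 95.3 to 95.7) and at CD93 (4.90, beside 6.63 to 6.95). At 48 h, DMSO replicate 1 was low at PLB1 (24.9, beside 45.2 to 48.8), DMSO replicate 2 was high at PTK2B (1.37, beside 0.295 to 0.428) and DMSO replicate 4 was high at NTN4 (39.5, beside 25.4 to 27.2). The right ZFP90, PTPN7, PLB1, PTK2B and first NTN4 members kept groups that did not overlap with these libraries included. Groups of 3 were not checked.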

How the results depend on the processing

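Over both times 26 members were higher and 5 lower. The counts of the members called were, higher and lower, 85 and 23 by −log10 p, 10 and 2 by summed folds, 87 and 59 with array quality weights, 41 and 24 without the 3 libraries that stand apart, 4 and 2 of 797 testable members with equal numbers of peaks, 12 and 3 by the exact permutation test, and 10 to 33 and 2 to 13 without each library in turn. Of all 35389 constitutive regions, 503 were called in the main fit. In the other settings, in the same order, 2400, 252, 3410, 1233, 172 of 27461 testable and 303 were called, and 266 to 751 by library. Of the 31 called members, those still called were 29, 12, 31, 30, 6 of 10 testable and 13 in these settings, and 31 with ranks among distal regions only. Over 723 checks of single members 509 kept the call and none changed direction. The checks reuse most of the libraries that chose the 31, so the kept direction is a description only. At 24 h, where 2 passed, the counts were 25 by −log10 p, 0 by summed folds, 1 with distal ranks, 55 with weights, 6 without the 3 libraries, 0 with equal numbers of peaks and 0 to 3 by library. At 48 h, where 1 passed, they were 32, 0, unchanged, 137, 14, 0 and 0 to 5. The exact permutation test gave 0 at each time, but its 70 and 35 assignments cannot reach the threshold over 35389 regions, so these counts say nothing of the calls. Over both times the smallest p this test allows is 0.000408. The smallest adjusted p it gave a member was 0.0477, just under the threshold. The 13 calls it kept thus also reflect its coarse steps. With weights, 8 members were called for the change of effect and 1 for time in DMSO, and 0 for both without any library. In dense bins, 10, 1 and 1 were called by −log10 p over both times, at 24 h and at 48 h, 1 over both times without the 3 libraries, and 0 to 0 by library. For these bins, and for the counts at single times, numbers over all bins or regions in these settings are not given here. These counts are therefore not read as results about the members. The median difference turned negative with weights (−0.025 over both times, −0.15 at 48 h), without the 3 libraries (−0.061 and −0.14) and without Lgk974 48 h replicate 3 (−0.046 and −0.14); without each library it ran from −0.046 to 0.126 over both times and from −0.14 to 0.194 at 48 h. The cause of these shifts was not tested.

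The replicate number as a block gave 47 higher and 9 lower over both times, 4 at 24 h and 5 at 48 h; all 31 calls were shared. A block of its own at each time, chosen after seeing the data, gave 38 higher and 5 lower over both times, 2 at 24 h and 1 at 48 h, and lost FAM43A and SLC22A5 of the 31. Permuting calling within the block left 7 higher and 5 lower variable regions at an unadjusted p under 0.05; the smallest p it allows is 0.0156, against 0.000408 without the block, so the counts are not like for like. Variable regions were 12 lower without the 3 libraries, and 14 to 49 higher and 8 to 19 lower by library. Numbers over all variable regions in these settings are not given here, so these counts are a description only.

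The rule set how many members there were: 66 in 7 bins when 50% of a region had to be covered, 3211 in 477 at 6 kept regions per bin, 213 in 21 at 10, 575 in 69 with ends of all genes, 4157 in 471 without the 3 libraries, and 1061 to 1505 in 126 to 175 by library. Bins shifted by 50 kb gave 945 members, of which 350 were shared (32.8% and 37.0% of each set). The members' median percentile of 30.7 by fold was 46.7 by −log10 p. Depth is unknown, so a region not called may lie under a library's threshold.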
